A study of Mus musculus with 6 samples.

Results

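The IL-12, IL-18 and interferon gamma receptors, with the type I interferon receptor, the IL-10 receptor chain Il10ra and the transcription factor Stat4, were examined in donor CD8+ T cells as a set of 10 genes. They were chosen by symbol (Il12rb1, Il12rb2, Il18r1, Il18rap, Ifngr1, Ifngr2, Ifnar1, Ifnar2, Stat4 and Il10ra) and are 10 of the 14051 genes in the deposited table. Each one reached 10 normalized counts (reads divided by a size factor per library) in 3 or more libraries, the filter on low values, which 11649 genes passed in all. They were taken by name and role, with no threshold on a measured value.

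The samples were 6 bulk RNA-Seq libraries, of which the labels give 3 as GC-treated and 3 as vehicle-treated. B6D2F1 mice (C57BL/6 × DBA/2) were irradiated and received CD3+ T cells purified from donors of the strain B6.CD45.1, a parent-into-F1 transplant in which the T cells meet foreign MHC of the DBA/2 parent. The GC-treated recipients were given dexamethasone i.p. at 5 mg/kg/day and the controls methyl β-cyclodextrin, its carrier, both from day -1 to day 5. On day 5 an i.v. anti-CD45 antibody marked cells inside vessels, and the marked CD45.1+CD8+ donor T cells were sorted from the BM of recipients, which was pooled (2 to 3 mice in each biological group). Irradiation, transplant and labelling were common to both groups, and no untransplanted or resident-cell control was analysed here. It is not stated in the methods if the libraries came from separate pools of mice or how old those mice were, so the p-values measure only the spread between these libraries, which may in part be technical.

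CD8+ T cells read the cytokines around them through these receptors. IL-12 from dendritic cells binds a heterodimer of Il12rb1 and Il12rb2 and activates STAT4, and IL-18 binds Il18r1 with its accessory chain Il18rap and signals through MyD88 to NF-κB, and together they drive the cell to make interferon gamma. The cell can sense interferon gamma in turn through Ifngr1 and Ifngr2, and type I interferons through Ifnar1 and Ifnar2, while IL-10 acts through Il10ra with Il10rb to restrain inflammation. Glucocorticoids are known to dampen this axis, in part by lowering IL-12 made by antigen-presenting cells.

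Reads on the genes of the table numbered 60949593 to 64801008 per vehicle-treated library and 67887570 to 76888118 per GC-treated library. The 10 genes of the CD8+ T cell list in the table (Ptprc the highest) summed to 520785 to 626470 normalized counts. That list takes in genes not particular to CD8+ cells, such as Ptprc and Cd3e. Within it Cd8a had 63285 to 93850 and Cd8b1 86287 to 109279. The sums were 1287 to 1778 for 5 CD4+ T cell genes and at most 2357 for 5 NK cell genes. Neutrophil genes (10 of 13 in the table, Ltf the highest) summed to 1840, 12746 and 8980 in GC-treated 1 to 3 and to 789, 469 and 4302 in vehicle-treated 1 to 3, at most 0.0189% of counts. Monocyte and macrophage genes summed to 17386 to 26304 (Ccr2, which effector T cells also express, the highest) and dendritic cell genes to 6661 to 10364 (Itgax the highest). B cell genes summed to 19309 to 27887 (Ighm the highest). Among them Cd79b had 859.4 to 1225 and Cd22 301.3 to 485.2, while Ebf1 and Vpreb1 were under 30 in every library. Erythroid and platelet genes summed to 268 to 789 (Hba-a1 the highest, with Klf1, Alas2 and Gp9 under 30 in every library). Canonical glucocorticoid targets, listed with the receptor gene Nr3c1, did not follow the labels as a list. Of 9 genes tested, Nr3c1 (-0.19) among them, 2 had a positive and 7 a negative log2 fold change, and 0 passed an adjusted p of 0.05. Only Fkbp5, a chaperone that glucocorticoids induce, did not overlap between the groups. It was lower in every library labelled GC-treated, with 21148, 16401 and 14780 against 24889, 32705 and 21271. GC-treated 1 and vehicle-treated 3 nearly met (log2 fold change -0.59, unadjusted p = 0.00808, adjusted p = 0.62 from limma). Dusp1, a phosphatase that glucocorticoids also induce, had 9343, 8495 and 6076 against 6151, 5872 and 5048, with overlapping groups (log2 fold change 0.47, unadjusted p = 0.0161, adjusted p = 0.62 from limma). GC-treated 1 lay nearer to the vehicle-treated libraries than to the other GC-treated ones. Its chi-square of reads per gene, lower for a closer pair, was 21.2, 35.8 and 31.2 against vehicle-treated 1 to 3. Against GC-treated 2 and 3 it was 104 and 149. Without GC-treated 1, 2395 of all tested genes had an unadjusted p under 0.05 (20.6%), against 838 with all 6 libraries and 274 to 763 when any other library was left out. Directions below are those of the labels.

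Between the labelled groups no gene of the 11649 tested passed an adjusted p of 0.05 in limma, and 0% is the background against which the 10 receptor genes, also at 0, stand. At an unadjusted p under 0.05 limma counted 838 genes (7.19% of those tested), edgeR 705 and DESeq2 988, and of these DESeq2 passed 2 at an adjusted p of 0.05. Of the 10 receptor genes, 1 (Il18rap) had an unadjusted p under 0.05 in limma, a share near that background. The groups did not overlap for the same 1 of 10 genes, against 12.8% of all tested genes. Log2 fold changes, here GC-treated over vehicle-treated on log2(normalized count + 1), were positive for 5 of the genes and negative for 5. Their median was 0.0041, against -0.0079 over all tested genes. In bulk RNA, fewer cells that express a gene and less RNA per cell cannot be told apart.

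**Figure D1:**
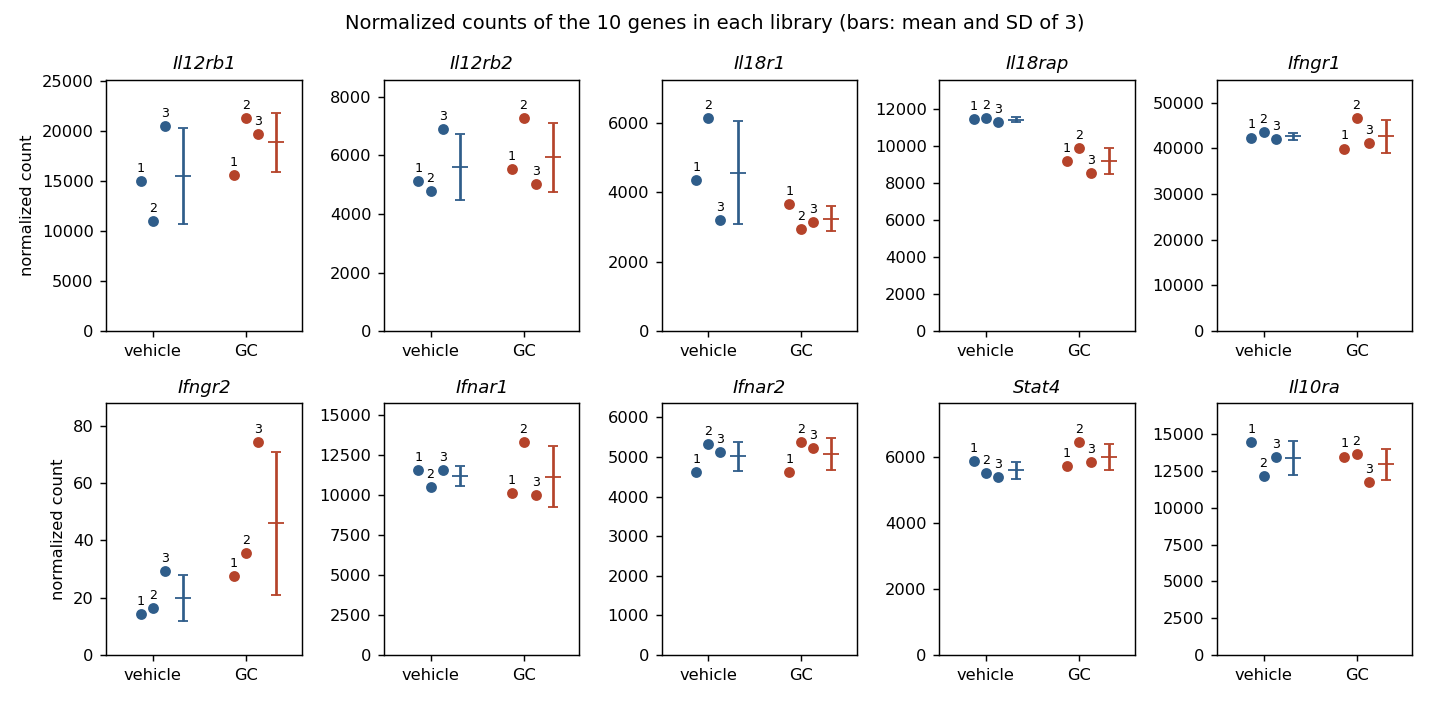
Normalized counts (vertical axis, from 0) of the 10 genes in each library, vehicle-treated in blue and GC-treated in red, with the replicate number beside each point and bars for the mean and SD of 3 libraries. The groups separate only for Il18rap, at 8521 to 9880 against 11264 to 11497, and Ifngr2 lies below 80 in every library while Ifngr1 lies between 39960 and 46616.

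The 10 genes differed far more from one another in level than between the groups. As normalized counts per kilobase of merged exons, averaged over 6 libraries, Ifngr1 stood at 14980, above 99.1% of tested genes, and Ifngr2, its partner chain, at 7.29, above 9.17% of them. Between these ends came Il10ra at 3017, Il12rb1 at 2757, Il18rap at 1525, Il12rb2 at 1519, Ifnar1 at 1376, Ifnar2 at 1348, Il18r1 at 791.6 and Stat4 at 648.5. All but Ifngr2 exceeded the median of tested genes, 302.7 per kilobase. Ifngr1 did not overlap with the next gene in any library, nor did Il12rb1 with Il18rap or Stat4 with Ifngr2. The other neighbours in this order had overlapping ranges, so that Il18rap, Il12rb2, Ifnar1 and Ifnar2 could not be ranked against one another. With the length of the longest transcript in place of merged exons, 7 of the 10 kept their rank, and the first 3 and last 3 kept theirs.

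**Figure D2:**
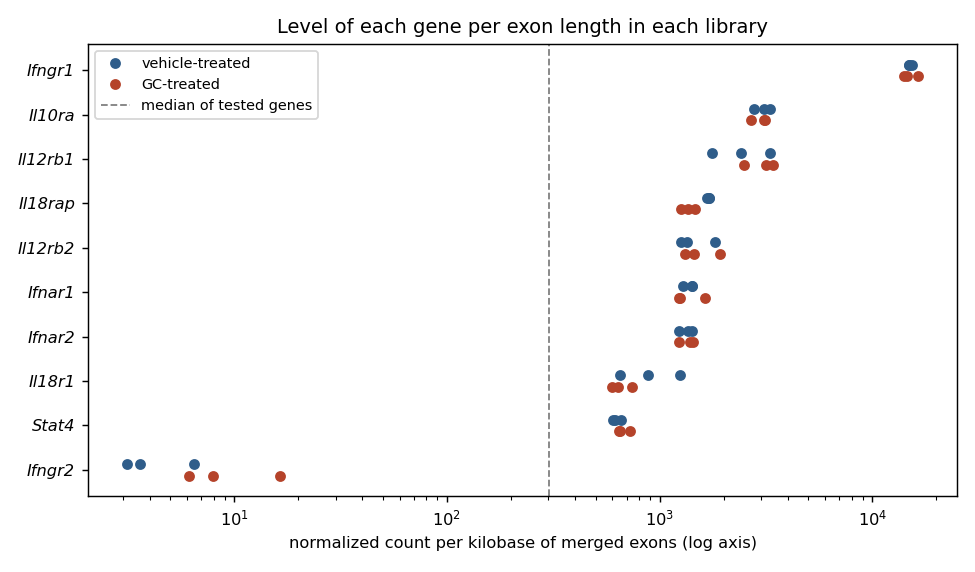
Normalized count per kilobase of merged exons (horizontal log axis) of the 10 genes in each of 6 libraries, ordered by mean, with vehicle-treated in blue, GC-treated in red and the median of tested genes, 302.7, as a dashed line. Ifngr1 lies highest at 14040 to 16370 and Ifngr2 lowest at 3.14 to 16.5.

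The interferon gamma receptor was therefore the most unequal pair. Ifngr1, the ligand-binding chain at chr10:19467697-19485977 on the plus strand (GRCm39), had 39960, 46616 and 41232 normalized counts in GC-treated 1 to 3 and 42367, 43573 and 42108 in vehicle-treated 1 to 3. These means, 42600 ± 3533 and 42680 ± 781.6 (SD, n = 3), lay within the spread between libraries. The log2 fold change was -0.0058 with a standard error of 0.082 and a 95% interval from -0.19 to 0.18 (adjusted p = 0.986 from limma).

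Ifngr2, the signalling chain that brings JAK2 to the complex, lies at chr16:91343906-91362512 on the plus strand. It had 27.7, 35.7 and 74.5 normalized counts in GC-treated 1 to 3 and 14.2, 16.2 and 29.2 in vehicle-treated 1 to 3. These rest on 32, 36 and 81 reads and on 13, 15 and 28 reads. The highest library was GC-treated 3, and GC-treated 1 lay below vehicle-treated 3, so the groups overlapped. Means of 45.96 ± 24.99 and 19.87 ± 8.155 (SD, n = 3) corresponded to a log2 fold change of 1.11 with a standard error of 0.59 and a 95% interval from -0.22 to 2.44. This did not pass the test (unadjusted p = 0.0914, adjusted p = 0.62 from limma). GC-treated 3 carried much of the difference, since the log2 fold change was 0.71 without that library, while it was 1.40 without GC-treated 1. Other pseudocounts, scalings, filters and tests gave 0.85 to 1.21. Neutrophil genes were highest in GC-treated 2 and 3 and vehicle-treated 3, the same 3 libraries in which Ifngr2 was highest, and their part in the Ifngr2 reads was not tested. Among 9683 tested genes with a mean of at least 100, those most like Ifngr2 across 6 libraries included Serpina3f, a serine protease inhibitor, and Gadd45g, a stress-response gene induced by IL-12 and IL-18. Their centred log2 values differed from those of Ifngr2 by a root mean square of 0.35 each.

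Per kilobase, Ifngr1 exceeded Ifngr2 by 2288, 2070 and 878.5 times in GC-treated 1 to 3 and by 4740, 4262 and 2287 times in vehicle-treated 1 to 3. The smallest excess in any library was thus 878.5-fold, and the mean of the 6 per-library ratios was 2754 by merged exons and 3021 by longest transcripts. The groups met at GC-treated 1 and vehicle-treated 3, and an exact two-sided permutation test of the log2 ratio gave p = 0.2 (0.8 adjusted over the 4 chain ratios tested), where 3 against 3 libraries cannot give less than 0.1. The other 3 ratios below had the same adjusted value. Neither gene shares an exon base with another gene in the Gencode M39 annotation. The authors counted with an earlier Gencode release that was not used here, so which exons stood behind the Ifngr2 row was not checked.

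The 250 bases before the canonical start of Ifngr1 and of Ifngr2 are shown because these 2 genes lie at the ends of the order of levels. Capitals mark CG dinucleotides, from chr10:19467447-19467696 and chr16:91343656-91343905 on the plus strands of GRCm39.
Ifngr1: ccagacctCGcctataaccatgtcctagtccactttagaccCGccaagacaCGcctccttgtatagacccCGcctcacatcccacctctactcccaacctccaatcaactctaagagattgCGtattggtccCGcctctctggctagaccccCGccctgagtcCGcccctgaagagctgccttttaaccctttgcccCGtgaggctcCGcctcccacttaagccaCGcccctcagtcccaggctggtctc
Ifngr2: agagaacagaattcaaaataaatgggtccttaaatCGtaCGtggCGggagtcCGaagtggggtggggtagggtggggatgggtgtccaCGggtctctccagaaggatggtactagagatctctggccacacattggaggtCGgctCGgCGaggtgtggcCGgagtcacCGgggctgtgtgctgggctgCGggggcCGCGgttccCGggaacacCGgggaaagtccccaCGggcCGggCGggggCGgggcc
Ifngr1 had 11 such dinucleotides and Ifngr2 had 19, against a median of 8 over 21738 protein-coding promoters, of which 63.0% held no more than Ifngr1 and 84.1% no more than Ifngr2. Over the 10 genes the count in the same window ran from 0 in Il12rb1 to 19 in Ifngr2. It was 3 in Stat4, 8 in Il10ra and 12 in Ifnar1, and a relation of CG to level was not tested. A glucocorticoid response element half-site (AGAACA, either strand) occurred in the window of Ifngr2, 248 to 243 bases before the canonical transcript start. It also occurred in that of Stat4, 45 to 40 bases before that start. The window of Stat4, chr1:52047152-52047401, lies inside the span given below for the gene. That is 2 of 10 genes, beside 14.3% of all promoters.

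For the IL-12 receptor, both chains were abundant and neither differed between the groups beyond the spread. Il12rb1, the chain shared with the IL-23 receptor, at chr8:71261093-71276183 on the plus strand, had 15572, 21253 and 19634 normalized counts in GC-treated 1 to 3 and 14963, 10952 and 20509 in vehicle-treated 1 to 3. The lowest library was vehicle-treated 2 and the groups overlapped. Means were 18820 ± 2927 and 15470 ± 4799 (SD, n = 3), with a log2 fold change of 0.32 (standard error 0.21, 95% interval -0.15 to 0.79, adjusted p = 0.633 from limma). The value hung on single libraries, at 0.091 without vehicle-treated 2 and 0.54 without vehicle-treated 3.

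Il12rb2, the chain that confers STAT4 signalling and is induced on activated type 1 cells, lies at chr6:67268302-67353172 on the minus strand. It had 5519, 7264 and 5008 normalized counts in GC-treated 1 to 3 and 5107, 4782 and 6894 in vehicle-treated 1 to 3. GC-treated 2 and vehicle-treated 3, from opposite groups, stood above the rest. The means of 5930 ± 1183 and 5595 ± 1137 (SD, n = 3) gave a log2 fold change of 0.08 (95% interval -0.30 to 0.47, adjusted p = 0.864 from limma), which turned to -0.071 without GC-treated 2. In the annotation 40.0% of its exon bases lie opposite exons of Serbp1, and since the library kit does not mark strand, reads there cannot be told apart. Per kilobase, Il12rb1 exceeded Il12rb2 in every library, by 1.72, 1.79 and 2.39 times in GC-treated 1 to 3 and by 1.79, 1.40 and 1.82 times in vehicle-treated 1 to 3 (p = 0.6, exact two-sided permutation test of the group difference).

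The IL-18 receptor chains were both lower on average in the libraries labelled GC-treated, and neither passed the test across all genes. The genes are neighbours on the plus strand of chromosome 1, Il18r1 at chr1:40504712-40540014 and Il18rap at chr1:40554522-40590865, with 14507 bases between them. Il18rap, which the receptor needs in order to signal, had 9159, 9880 and 8521 normalized counts in GC-treated 1 to 3 and 11463, 11497 and 11264 in vehicle-treated 1 to 3. Each GC-treated library lay below each vehicle-treated one, and the 3 vehicle-treated values were nearly equal. Means of 9187 ± 680.2 and 11410 ± 125.6 (SD, n = 3) corresponded to a log2 fold change of -0.31 with a standard error of 0.085 and a 95% interval from -0.51 to -0.12. The unadjusted p was 0.00476 and the adjusted p was 0.62 from limma, so Il18rap did not pass. Leaving out any 1 library gave -0.37 to -0.26, and without GC-treated 1 the adjusted p was 0.13, the lowest for any of the 10 genes under any setting tried.

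A few marker genes or sums of other cells separated by group in the same direction as Il18rap. Single genes did so for 1 of 5 CD4+ T cell, 2 of 4 erythroid and platelet and 1 of 10 monocyte and macrophage genes tested. In the other marker lists 0 tested genes separated in either direction, beside 12.8% of all tested genes. Neutrophil genes, though overlapping, had positive log2 fold changes for 9 of 10 and a negative one for 1, with a median of 2.69. Of all tested genes 48.5% were positive. From limma, 5 of the 10 were higher at an unadjusted p under 0.05, beside 2.12% of all tested genes, and 0 passed the adjusted test. The sum of 5 CD4+ T cell genes was 1287, 1470 and 1346 normalized counts in GC-treated 1 to 3 and 1507, 1612 and 1778 in vehicle-treated 1 to 3. The sum of the erythroid and platelet genes was 268, 334 and 388 in GC-treated 1 to 3 and 789, 672 and 481 in vehicle-treated 1 to 3. Cd163, a macrophage scavenger receptor, had 104.8, 105.2 and 95.6 in GC-treated 1 to 3 and 340.3, 249.7 and 246.2 in vehicle-treated 1 to 3, although the summed monocyte and macrophage genes overlapped. These separated genes and sums lie below Il18rap in level, and their part in its difference was not tested.

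Il18r1, the chain that binds IL-18, varied more. It had 3647, 2937 and 3140 normalized counts in GC-treated 1 to 3 and 4363, 6132 and 3192 in vehicle-treated 1 to 3. Vehicle-treated 2 was the highest and vehicle-treated 3 fell among the GC-treated libraries. The means of 3241 ± 365.5 and 4562 ± 1480 (SD, n = 3) gave a log2 fold change of -0.45 (standard error 0.21, 95% interval -0.92 to 0.025, adjusted p = 0.62 from limma), at -0.21 without vehicle-treated 2 and -0.68 without vehicle-treated 3. Per kilobase Il18r1 was the lower chain in every library. Its ratio to Il18rap was 0.545, 0.407 and 0.505 in GC-treated 1 to 3 and 0.521, 0.731 and 0.388 in vehicle-treated 1 to 3 (p = 0.8, exact two-sided permutation test).

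**Figure D3:**
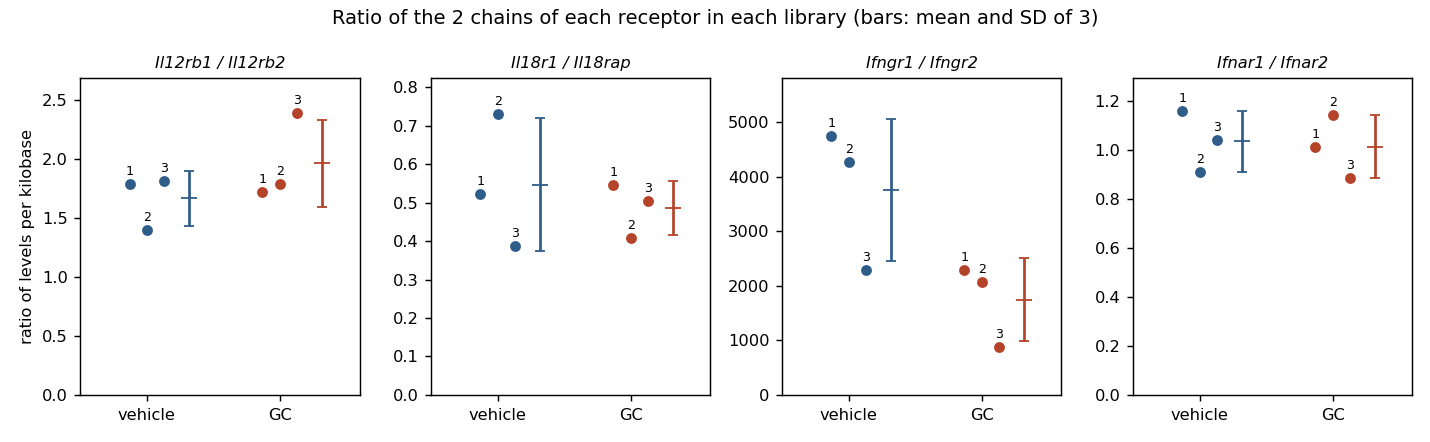
Ratio of the levels per kilobase of the 2 chains of each receptor (vertical axes, each from 0) in vehicle-treated (blue) and GC-treated (red) libraries, with replicate numbers and bars for the mean and SD of 3. Ratios lie between 0.388 and 2.39 for 3 receptors and between 878.5 and 4740 for Ifngr1 over Ifngr2, and the groups overlap for each.

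For the type I interferon receptor the chains were close to even by merged exons, but their order depended on the length used. Averaged over 6 libraries, Ifnar1 and Ifnar2 stood at 1376 and 1348 per kilobase of merged exons. By longest transcripts they stood at 2110 and 1532, and by exon bases not shared on the same strand at 1376 and 1684. Ifnar1, which recruits TYK2, at chr16:91281942-91305789 on the plus strand, had 10106, 13319 and 9996 normalized counts in GC-treated 1 to 3 and 11580, 10479 and 11543 in vehicle-treated 1 to 3, with GC-treated 2 the highest. Ifnar2, the high-affinity chain that recruits JAK1, at chr16:91169618-91202723 on the plus strand, had 4609, 5383 and 5219 in GC-treated 1 to 3 and 4618, 5326 and 5113 in vehicle-treated 1 to 3. The groups overlapped for both genes, and the values of Ifnar2 nearly coincided. Log2 fold changes were -0.02 for Ifnar1 (95% interval -0.29 to 0.25, adjusted p = 0.963 from limma) and 0.01 for Ifnar2 (95% interval -0.21 to 0.24, adjusted p = 0.971). The ratio of Ifnar1 to Ifnar2 per kilobase averaged 1.01 ± 0.129 in GC-treated and 1.03 ± 0.125 in vehicle-treated libraries (SD, n = 3; p = 0.7, exact two-sided permutation test). In the annotation, 747 of the 3742 exon bases of Ifnar2 are shared with Gm21970, a gene on the same strand that also takes in exons of Il10rb.

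Ifnar2, Il10rb, Ifnar1 and Ifngr2 form a cluster on the plus strand of chromosome 16, in that order, with gaps of 288, 57341 and 38116 bases. Of these neighbours Ifngr2 stood alone in its level, at 7.29 per kilobase against 1348 for Ifnar2, 693.1 for Il10rb and 1376 for Ifnar1. Il10rb had 3740 to 4974 normalized counts over the 6 libraries.

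Il10ra, the chain that binds IL-10, at chr9:45165132-45180563 on the minus strand, had 13501, 13665 and 11778 normalized counts in GC-treated 1 to 3 and 14503, 12200 and 13488 in vehicle-treated 1 to 3. The groups overlapped, with means of 12980 ± 1045 and 13400 ± 1154 (SD, n = 3) and a log2 fold change of -0.05 (95% interval -0.27 to 0.18, adjusted p = 0.873 from limma). Stat4, which carries the IL-12 signal to the nucleus, at chr1:52026307-52151423 on the plus strand, had 5739, 6470 and 5853 in GC-treated 1 to 3 and 5891, 5516 and 5395 in vehicle-treated 1 to 3. Only vehicle-treated 1 reached into the GC-treated range. Its means of 6021 ± 393.1 and 5601 ± 258.4 (SD, n = 3) gave a log2 fold change of 0.10 (95% interval -0.10 to 0.31, adjusted p = 0.7 from limma). In the annotation 11.5% of Stat4 exon bases are shared with another gene on the same strand and 41.5% with a gene on either strand.

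**Figure D4:**
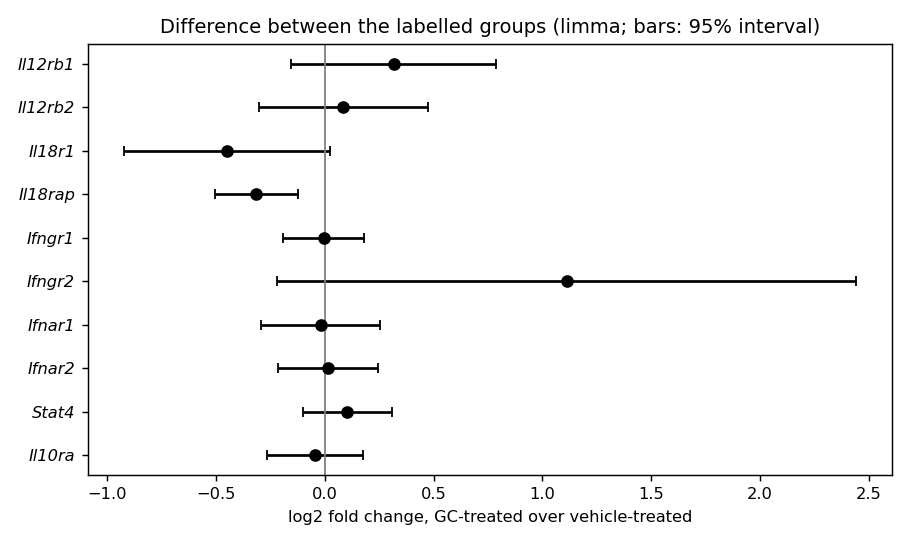
Log2 fold change of each of the 10 genes, GC-treated over vehicle-treated, with the 95% interval from limma (horizontal axis, log2 of normalized count + 1, n = 3 per group). The interval of Il18rap, -0.51 to -0.12, lies below 0, those of the other 9 genes take in 0, and that of Ifngr2 is the widest at -0.22 to 2.44.

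The intervals give the range of differences compatible with these libraries, gene by gene and without adjustment over all tested genes. They do not give the size of difference that would have passed the adjusted test. For Ifngr1, Ifnar1, Ifnar2, Stat4 and Il10ra each limit of the 95% interval lay within 0.31 of 0 on the log2 scale. For Il12rb1 and Il18r1 it reached 0.79 and -0.92.

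STAT proteins bind the interferon gamma-activated sequence (GAS), TTCNNNGAA, which reads the same on both strands. It was found within 250 bases before the canonical transcript start of 3 of the 10 genes, Ifnar2, Il12rb2 and Il18r1, and in 7.7% of 21738 promoters. The matches are shown with 10 bases on each side, 5′ to 3′ on the strand of the gene, with the motif in capitals. They lie at chr16:91169447-91169475, chr6:67353277-67353305, chr1:40504817-40504845 and chr1:40504937-40504965, in that order.
Ifnar2: tgccaaggccTTCCTGGAAgaagagagta
Il12rb2: gttcccttttTTCTCAGAAccgcactaag
Il18r1, distal: aggctgcaggTTCCGGGAAgccaaaggcg
Il18r1, proximal: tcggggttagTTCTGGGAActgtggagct
They begin 214, 123, 191 and 71 bases before the canonical transcript start. Those of Il18r1 lie inside the span given above for that gene. The 3 genes had log2 fold changes of 0.01, 0.08 and -0.45, in which no common direction is seen. A match of letters is not a binding site, and binding was not measured.

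Across single libraries rather than groups, Il12rb1 and Il18r1 ran opposite to each other. GC-treated 2, vehicle-treated 3 and GC-treated 3 held the 3 highest values of Il12rb1, and the same 3 libraries held the 3 lowest of Il18r1. In vehicle-treated 2, Il12rb1 had a deviation of -0.61 from its mean over 6 libraries on the log2 scale and Il18r1 one of 0.70. GC-treated 2 was the highest library for 6 of the 10 genes (Il12rb1, Il12rb2, Ifngr1, Ifnar1, Ifnar2 and Stat4). The share over all tested genes was not counted. Some other lists also had their highest median deviation there, such as the JAK kinases, other STATs and Irf9 (0.19) and type I interferon targets (0.44). The ligands (-0.53) and the IL-18 adaptors and kinases (0.023) did not. Ifngr1 and Ifnar2 moved least, with highest over lowest libraries 0.22 apart on the log2 scale for both, against 2.31 for Ifngr2, 1.06 for Il18r1 and 0.96 for Il12rb1.

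**Figure D5:**
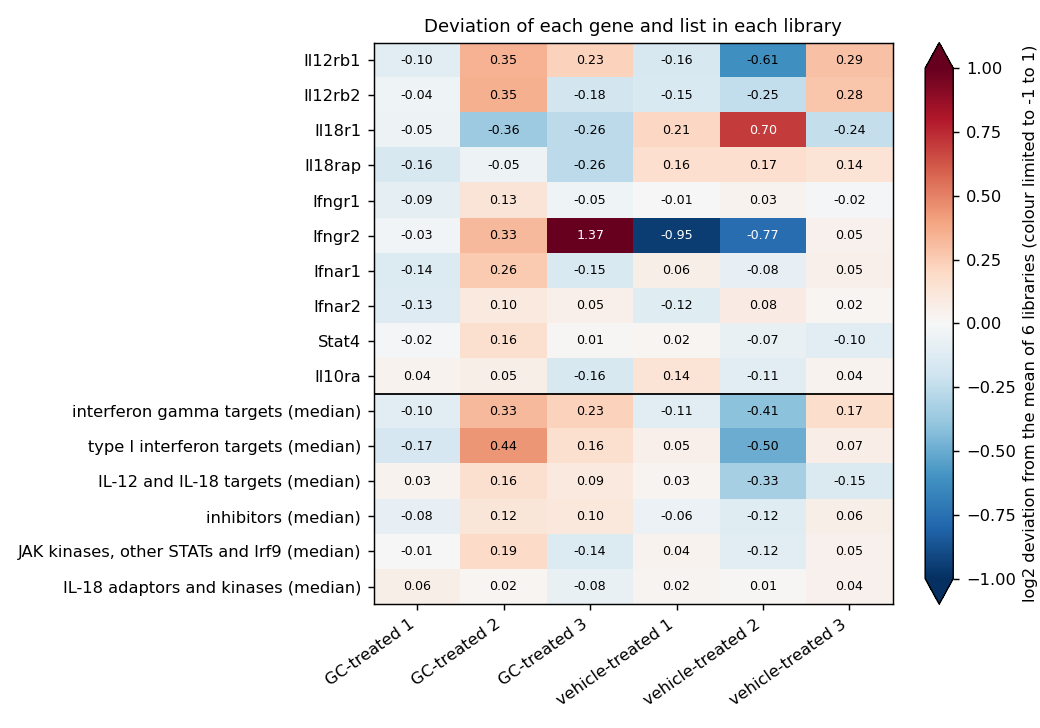
Log2 deviation of each gene from its mean over 6 libraries (rows above the line), and median deviation of 6 lists of pathway genes (rows below it), by library in columns, with red above the mean, blue below and colours limited to -1 to 1. Il12rb1 and the interferon gamma targets are positive in GC-treated 2, GC-treated 3 and vehicle-treated 3, where Il18r1 is negative.

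Genes around the receptors were read from lists. Of 11 related receptor chains tested, 0 passed, 6 were positive and 5 negative, with a median of 0.0053. By level per kilobase the highest among them were Il21r at 7258 and Il27ra, the IL-27 receptor chain, at 4125, both above Il10ra. Il1rl2, a receptor of the IL-36 branch of the IL-1 family, had 720.4, 656.9 and 627.7 normalized counts in GC-treated 1 to 3 and 891.1, 941.6 and 749.1 in vehicle-treated 1 to 3. The groups did not overlap, with a log2 fold change of -0.36 (unadjusted p = 0.0379, adjusted p = 0.62 from limma). Il1rl1, the IL-33 receptor, gave -0.48 with overlapping groups. Il1r1, the receptor for IL-1, was at 33.8 or fewer normalized counts in every library, with 0 in GC-treated 1, and its log2 fold change of -1.40 depends on the pseudocount. Il23r, which pairs with Il12rb1 in the IL-23 receptor, was at 0 in the 3 GC-treated libraries and at 4.36, 28.1 and 28.2 in the vehicle-treated ones, below the filter, and was not tested.

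Of the 4 ligands tested 0 passed, and Ifng had the highest counts. It had 3739, 4782 and 4322 normalized counts in GC-treated 1 to 3 and 3668, 2438 and 3137 in vehicle-treated 1 to 3, and the groups did not overlap, though GC-treated 1 and vehicle-treated 1 nearly met. Its log2 fold change of 0.49 did not pass (unadjusted p = 0.0133, adjusted p = 0.62 from limma), and 25.9% of its exon bases are shared with a gene on the same strand. Il18 (69.5 to 175.8 normalized counts) and Il10 (188.5 to 392.5) gave -0.17 and -0.09. Il12a and Il12b, the subunits of IL-12, and Il23a had at most 5.41 normalized counts in any library.

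Downstream, 0 of 11 genes (JAK kinases, STATs other than Stat4, and Irf9) passed, with 4 positive and 7 negative and a median of -0.0098. The kinases Jak1, Jak2 and Tyk2, which serve these receptors, stood at 6522, 2062 and 1507 per kilobase. Stat2 had a log2 fold change of 0.16 and Stat5b of -0.14, with overlapping groups. Of 12 adaptors and kinases of the IL-18 pathway 0 passed and 7 were negative. Irak4, the first kinase after MyD88, had 2212, 2592 and 2401 normalized counts in GC-treated 1 to 3 and 2680, 2651 and 2613 in vehicle-treated 1 to 3. These did not overlap, with a log2 fold change of -0.14 (adjusted p = 0.649 from limma). Irak2 gave -0.33 and Rela, an NF-κB subunit, 0.10.

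Of 14 inhibitors of these pathways 0 passed, with 10 positive and 4 negative and a median of 0.09. Socs1, which blocks JAKs at the interferon gamma receptor, had 2162, 3027 and 3341 normalized counts in GC-treated 1 to 3 and 1848, 1707 and 2609 in vehicle-treated 1 to 3, a log2 fold change of 0.47 with overlapping groups (unadjusted p = 0.0442, adjusted p = 0.62 from limma). Socs2, a relative of Socs1, gave 0.68 and Ptpn11, a tyrosine phosphatase, -0.61, both with overlapping groups. Of 11 transcription factors of the type 1 response 0 passed and 7 were negative. Irf4, a factor of activated T cells, did not overlap between groups, with 2827, 1744 and 2329 in GC-treated 1 to 3 and 3126, 3662 and 2975 in vehicle-treated 1 to 3 (log2 fold change -0.52, unadjusted p = 0.0145, adjusted p = 0.62 from limma). Bhlhe40, which sustains interferon gamma production, gave 0.21 without overlap, and Zeb2, a factor of effector differentiation, -0.65 with overlap.

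Most target genes of these cytokines had positive log2 fold changes, and 0 of them passed. Among genes induced by IL-12 and IL-18, 10 of 13 were positive with a median of 0.16, and 4, each higher in the GC-treated group, had an unadjusted p under 0.05, among them Gadd45g at 0.79 and Map3k8, a kinase of the NF-κB and ERK pathways, at 0.32. Of all tested genes 7.19% were below that p, and 2.12% were below it and higher in the GC-treated group. Without vehicle-treated 2, 7 of 13 were positive, with a median of 0.086, and 1 gene had an unadjusted p under 0.05, beside 2.35% of all tested genes. Among interferon gamma targets, 17 of 19 were positive with a median of 0.28, where 48.5% of all tested genes were positive, and 2 had an unadjusted p under 0.05, Psmb8 (an immunoproteasome subunit) at 0.39 and Socs1. Leaving out a single library moved this median between 0.15 without vehicle-treated 2 and 0.46 without GC-treated 1, and the number at an unadjusted p under 0.05 ranged from 0 to 12, the latter without GC-treated 1, where 20.6% of all tested genes were below it. Ciita, the master regulator of MHC class II, had 8.73 to 113.1 normalized counts and gave 1.63 (unadjusted p = 0.0619). Among type I interferon targets 20 of 22 were positive with a median of 0.26 and 0 at an unadjusted p under 0.05, among them Oas2 at 0.55, Usp18 at 0.59 and Isg20 at 0.45. Without vehicle-treated 2, 14 of 22 were positive with a median of 0.089, and without GC-treated 2, 15 of 22 with a median of 0.093. Without GC-treated 1, 9 of the 22 had an unadjusted p under 0.05, as did 20.6% of all tested genes.

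Library by library, the interferon gamma targets' median deviation was -0.10, 0.33 and 0.23 in GC-treated 1 to 3 and -0.11, -0.41 and 0.17 in vehicle-treated 1 to 3, on the log2 scale against the mean of 6 libraries. The targets were thus highest in the libraries that also held the most Il12rb1 and Ifngr2 and the least Il18r1, among them vehicle-treated 3, and the groups overlapped. Neutrophil genes were highest in the same 3 libraries, and their part in these values was not tested. Ifngr2 reads numbered 28 to 81 in those libraries.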

How the data were processed

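Bulk RNA-Seq of sorted donor CD8+ T cells was analysed from 3 GC-treated and 3 vehicle-treated libraries, grouped by the sample titles. The libraries were made with a SMART v4 and Nextera XT kit, which does not mark strand. The authors aligned reads with STAR to GRCm39, counted them per gene with an earlier Gencode release than the one used here, and deposited 1 table of normalized signal values, each library's counts divided by a size factor as DESeq2 does. For STAR, bcl2fastq and DESeq2 the versions were not given in the sources used here. All values (100.0%) lay within 0.001 of a whole multiple of 1 step per library, which gave back the reads. The step of GC-treated 2 is so near 1 that an automatic check could not judge that column.

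Values were tested with limma 3.58.1 in R 4.3.3 after a log2(value + 1) transform (trend = TRUE), over genes at 10 or more in at least 3 libraries. Two-sided p-values were adjusted by Benjamini-Hochberg over all tested genes, with a threshold of 0.05. Fold changes of low genes depend on the pseudocount. Alternatives were edgeR 4.0.16 and DESeq2 1.42.0 on recovered reads, other scalings, filters and pseudocounts, thinned reads, a replicate block and leaving out each library. Scripts were tested on simulated data. No 2 libraries agreed within sampling noise. Levels were divided by merged exon length in Gencode M39 (GRCm39), where 13727 of 14051 symbols were found, and promoter sequences were read from GRCm39 before the canonical transcript start. The 10 genes and the pathway and marker lists were chosen with earlier results of these data known. Named were the 10 genes, up to 3 genes with the smallest p of each pathway list, the highest gene of a marker list, and the 3 genes most like the gene of widest range. Cd163, Il10rb, Il21r, Il27ra, Il23r, Il12a, Il12b, Il23a, Jak1, Jak2 and Tyk2 were named for their roles or levels, after their values were seen. A few genes that this rule takes are not reported here.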

Additional observations from a re-analysis of the deposited data

How the results depend on the processing

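Of the 10 receptor genes 0 passed an adjusted p of 0.05 under any alternative tried. Over all tested genes, DESeq2 on recovered reads called 2 genes lower and limma without a trend called 1, against 0 for limma as reported. Leaving out 1 library gave 0 to 2 genes higher and 0 to 43 lower, the highest of each without GC-treated 1. The cause was not tested. With 1 library left out, 5 genes changed direction, their log2 fold changes ranging from -0.071 to 0.24 for Il12rb2, from -0.072 to 0.039 for Ifngr1, from -0.15 to 0.052 for Ifnar1, from -0.045 to 0.081 for Ifnar2 and from -0.11 to 0.023 for Il10ra. The difference between groups in the log2 chain ratio ranged from -0.36 to 0.10 for Il18r1 over Il18rap and from -0.12 to 0.061 for Ifnar1 over Ifnar2. Il12rb1, Il18r1, Il18rap, Ifngr2 and Stat4 kept their direction under each alternative. A filter at 50 removed Ifngr2. Levels per kilobase of exon bases that no other gene on the same strand shares, an alternative chosen after seeing the data, left 6 of the 10 genes at their rank. At an unadjusted p under 0.05, limma counted 1 of the 10 genes (7.19% of all tested genes), edgeR 2 (6.06%), DESeq2 2 (7.03%), limma with a replicate block 2 (8.44%) and limma without vehicle-treated 3 counted 3 (6.55%).

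Same-numbered libraries had deviations from their group means that correlated at 0.063, -0.14 and 0.13. With 3 libraries per group, these values cannot decide whether the replicate numbers pair the libraries, and the main fit used no pairing. With the replicate number as a block, limma called 0 genes higher and 0 lower, 983 had an unadjusted p under 0.05 against 838 without it. The block leaves each fold change as it was by construction, and the unadjusted p of Il18rap was 0.0113 with it, against 0.00476. With 13 to 81 reads per library, Ifngr2 is the least precise of the 10 genes.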
